A study of Homo sapiens with 18 samples.

Results

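The COMPASS subunits are 10 genes whose proteins accompany the H3K4 methyltransferases, among them MLL3 (KMT2C), the enzyme that was knocked down in this study. They were taken by name: the core subunits WDR5, RBBP5, ASH2L and DPY30, the MLL3/MLL4 partners KDM6A, PAXIP1 and NCOA6, the MLL1/MLL2 partner MEN1, HCFC1, which serves MLL1/MLL2 and SET1 complexes, and the SET1 partner CXXC1. All 10 were matched, each to a row of its own, among the 23500 genes of the RNA-seq table. The cells were ZR751 (ZR75-1), an ER+ breast cancer cell line without an MLL3 mutation, carrying either a hairpin against MLL3 (ZR751shMLL3, the knockdown, KD) or a hairpin against luciferase (ZR751shLucif, the control). Both were pools of cells sorted after stable lentiviral transduction, and a single MLL3 hairpin was used. RNA-seq was made from 2 libraries per cell line, and ChIP-seq for H3K4me1, ERα and SP1 from 2 libraries per cell line and target. The study calls these libraries biological replicates, the ChIP-seq ones of a single experimental repetition, and p-values measure the spread between such libraries.

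COMPASS complexes place methyl groups on lysine 4 of histone H3. A catalytic SET-domain protein is bound by WDR5, RBBP5, ASH2L and DPY30, which every complex of the family shares and which raise the activity of the enzyme. Further partners tell the complexes apart: KDM6A (UTX), a demethylase of H3K27, PAXIP1 (PTIP) and NCOA6 go with MLL3 and MLL4, the enzymes of H3K4me1 at enhancers, whereas menin (MEN1), HCFC1 and CXXC1 go with complexes known for H3K4 methylation at promoters.

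KMT2C, the target of the hairpin, was measured first as a check of the labels. Its level was 2.34 and 6.77 FPKM in ZR751shLucif replicates 1 and 2, and 1.07 and 2.69 FPKM in ZR751shMLL3 replicates 1 and 2. The mean was lower in ZR751shMLL3 (1.88 ± 1.148 against 4.56 ± 3.13 FPKM, SD, n = 2 each), but the groups overlapped and the difference of -1.02 ± 0.54 (SE) in log2(FPKM + 0.5) did not pass the limma test over all genes (adjusted p = 0.629). It was -1.70 without ZR751shLucif replicate 1, -0.35 without ZR751shLucif replicate 2, -0.51 without ZR751shMLL3 replicate 1 and -1.54 without ZR751shMLL3 replicate 2, and was called in none of these fits, so its size rests on which libraries are kept. The study itself checked the knockdown by qPCR on biological replicates and reported a significant difference in MLL3. FPKM are fragment counts per kilobase of transcript, scaled to the size of the library, so levels may be compared between genes, and a difference in log2(FPKM + 0.5) slightly understates the change of low genes. ZR751shLucif replicate 1 stood apart from the other libraries: its log2 values correlated at 0.900 to 0.907 with each of them across the 11134 genes tested, against 0.947 to 0.969 among the other 3. Of 8 luminal markers all exceeded 1 FPKM in every library, while none of 5 basal or mesenchymal markers did, and of 4 stromal and leukocyte markers COL1A1 was the one above that level (13.1 to 17.8 FPKM).

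The 10 subunits spanned an order of magnitude in RNA level. By their mean over the 4 libraries they ran from ASH2L (56.6 FPKM) through DPY30 (41.1), WDR5 (35.2), RBBP5 (17.1), CXXC1 (16.1), HCFC1 (14.9), NCOA6 (11.96), MEN1 (8.86) and KDM6A (5.60) to PAXIP1 (4.14 FPKM). The ranges of neighbours over the 4 libraries were apart at 2 places, WDR5 above RBBP5 and MEN1 above KDM6A, and overlapped at the others. Read within each library, 5 of the 9 neighbouring pairs kept this order in all 4 libraries, those 2 and also ASH2L above DPY30, DPY30 above WDR5 and KDM6A above PAXIP1. Thus 3 of the 4 core subunits formed the upper tier, and 2 of the 3 MLL3/MLL4 partners the lowest.

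**Figure D1:**
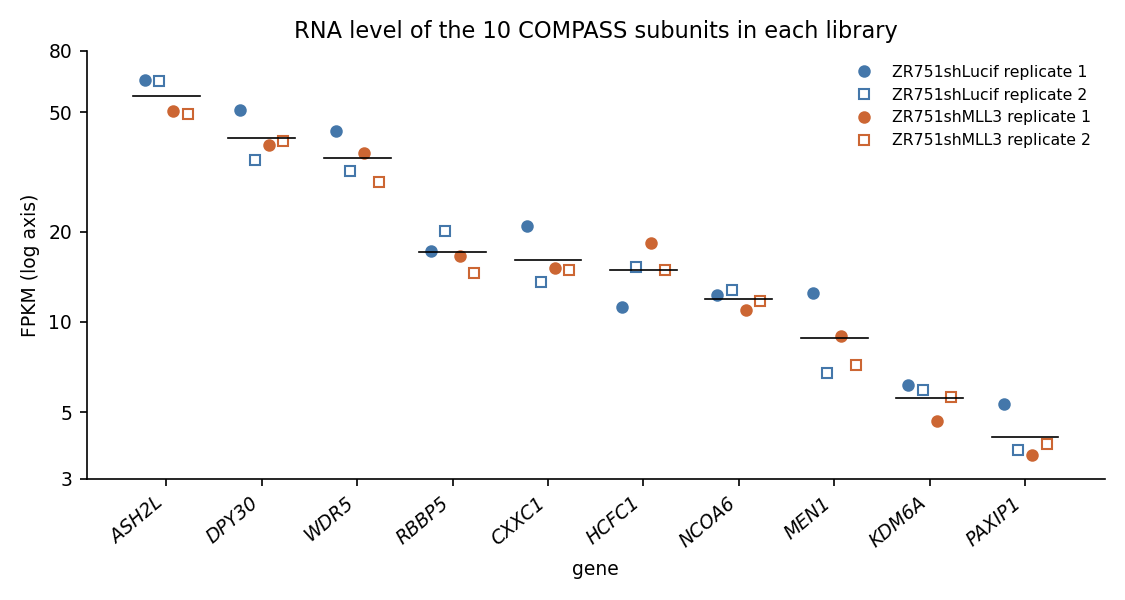
RNA level (FPKM, log axis) of each subunit in the 4 RNA-seq libraries, ordered by the mean, which is the black line. Filled symbols are replicate 1 and open symbols replicate 2; ASH2L lies between 49.1 and 63.7 FPKM, PAXIP1 between 3.60 and 5.31 FPKM, and ZR751shLucif replicate 1 is the highest of the libraries in 7 genes.

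Among the core subunits, ASH2L, which stimulates methylation together with RBBP5, had the largest difference of the lower values. It measured 63.7 and 63.3 FPKM in ZR751shLucif and 50.4 and 49.1 FPKM in ZR751shMLL3. The groups did not overlap, and replicates lay close together; the difference was -0.35 ± 0.26 (SE) with a 95% confidence interval of -0.97 to 0.28 (limma adjusted p = 0.685). Without the spread shared between genes, in a gene-by-gene linear model fitted across all genes, ASH2L alone of the subunits had an unadjusted p under 0.05, and its adjusted p was 0.565.

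RBBP5, the partner that ASH2L binds, had 17.2 and 20.2 FPKM in the control libraries and 16.6 and 14.5 FPKM in the KD libraries. Here too the groups did not overlap, by a margin smaller than the gap between replicates (-0.26 ± 0.27, interval -0.91 to 0.40, adjusted p = 0.760). WDR5, the histone-binding propeller protein that docks the enzyme, had 43.3 and 31.8 FPKM in the control libraries against 36.6 and 29.3 FPKM upon KD (-0.18 ± 0.30, interval -0.91 to 0.55). DPY30, the small subunit that binds ASH2L, was at 50.9 and 34.6 against 38.8 and 40.1 FPKM (-0.09 ± 0.30, interval -0.82 to 0.64). In WDR5 the groups overlapped and in DPY30 both KD libraries lay between the control libraries, and the replicates of ZR751shLucif differed more than the cell lines did.

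The MLL3/MLL4 partners had low to middle levels and small differences. KDM6A measured 6.16 and 5.95 FPKM in the control libraries and 4.68 and 5.61 FPKM in the KD libraries, without overlap (-0.22 ± 0.27, interval -0.87 to 0.43, adjusted p = 0.791). NCOA6, a coactivator of nuclear receptors, was at 12.3 and 12.8 against 11.0 and 11.8 FPKM, also without overlap (-0.14 ± 0.26, interval -0.77 to 0.49, adjusted p = 0.870). PAXIP1, a protein with BRCT domains, was at 5.31 and 3.75 against 3.60 and 3.91 FPKM, and its groups overlapped (-0.22 ± 0.29, interval -0.93 to 0.48, adjusted p = 0.801).

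Of the partners of the other complexes, HCFC1, a large chromatin scaffold, was the one subunit with a higher mean in ZR751shMLL3. It measured 11.2 and 15.3 FPKM in ZR751shLucif and 18.4 and 14.9 FPKM in ZR751shMLL3 (0.33 ± 0.30, interval -0.39 to 1.04, adjusted p = 0.729). MEN1, which tethers MLL1 and MLL2 to chromatin, was at 12.5 and 6.78 against 9.0 and 7.20 FPKM (-0.18 ± 0.36, interval -1.05 to 0.69). CXXC1, which binds unmethylated CpG, was at 20.8 and 13.6 against 15.2 and 14.9 FPKM (-0.16 ± 0.31, interval -0.91 to 0.59). In all 3 genes the groups overlapped. ZR751shLucif replicate 1 was the highest library for MEN1 and CXXC1 and the lowest for HCFC1, whose overlap lay between ZR751shLucif replicate 2 and ZR751shMLL3 replicate 2.

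As a group, 0 of the 10 subunits were called at an adjusted p under 0.05 in limma, and 0 had an unadjusted p under 0.05. In the background 0.00898% of 11134 genes were called (0 higher and 1 lower) and 7.98% had an unadjusted p under 0.05. The number called over all genes depends on the model. With 1 surrogate variable it was 473, with 0 of the subunits among them. The study, which removed surrogate variables, reported far more genes in both directions. A value below 0 was found for 9 of the 10 subunits and for 59.1% of all genes, and the median difference was -0.18 over the subunits and -0.10 over all genes. The 4 subunits lower in ZR751shMLL3 without overlap (ASH2L, RBBP5, KDM6A and NCOA6) stand beside 25.3% of all genes; none was higher without overlap, against 17.6% of all genes. The lower bounds of the 95% intervals ran from -1.05 (MEN1) to -0.39 (HCFC1) and the upper bounds from 0.28 (ASH2L) to 1.04 (HCFC1). Changes within the interval of each subunit were not excluded by these libraries.

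**Figure D2:**
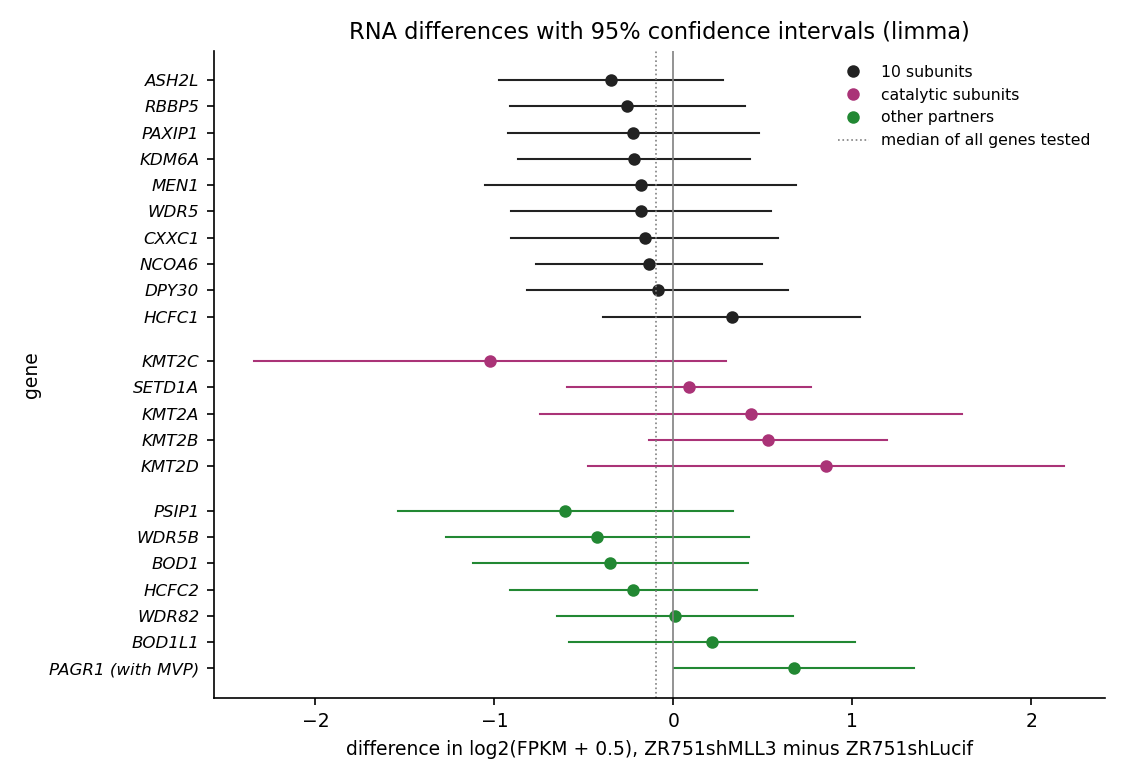
Difference in log2(FPKM + 0.5), ZR751shMLL3 minus ZR751shLucif, for the 10 subunits, the catalytic subunits and the other partners. Points are limma estimates and bars 95% confidence intervals from 2 libraries per cell line; the dotted line is the median of all genes tested (-0.10), and every bar but that of the row shared by PAGR1 and MVP includes 0.

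ZR751shLucif replicate 1 set the sign of several of these values. It held the highest level of 7 subunits, and without it 4 of the 10 values were below 0 and 6 above, with a median of 0.02. ASH2L (-0.34), RBBP5 (-0.37), KDM6A (-0.20) and NCOA6 (-0.16) stayed below 0 without that library. WDR5 (0.04), DPY30 (0.19), PAXIP1 (0.0019), MEN1 (0.23) and CXXC1 (0.14) did not, and HCFC1 came to 0.11.

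The place of ZR751shLucif replicate 1 varied with transcript length. Against the mean of the other 3 libraries it was 0.42 higher on the log2 scale for DPY30, whose canonical transcript of 688 bp is the shortest of the 10, and 0.50 lower for HCFC1, whose transcript of 8876 bp is the longest (log2 difference -0.50). Over the 10 subunits Spearman's rho between this difference and length was -0.81, and over 10540 genes with a transcript length it was -0.24, both given as descriptions because all points share the same 4 libraries. With trends on GC content and length removed from each library HCFC1 came to -0.06 and DPY30 to 0.35; neither was called.

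**Figure D3:**
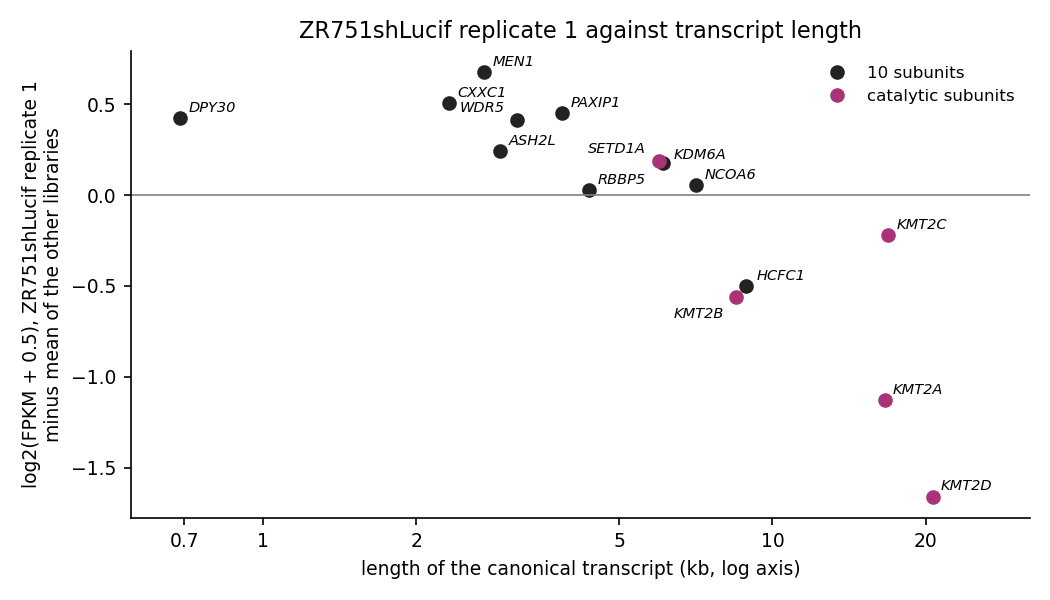
Log2(FPKM + 0.5) in ZR751shLucif replicate 1 minus the mean of the other 3 libraries, against the length of the canonical transcript (kb, log axis), for the 10 subunits and 5 catalytic subunits. Short subunits such as DPY30 (0.42) lie above 0 and long genes such as HCFC1 (-0.50) and KMT2D (-1.66) below.

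The catalytic subunits, 5 of the 6 listed (SETD1B was not matched), gave 0 called genes, 1 value below 0 and 4 above. KMT2D, which encodes MLL4, had the highest of the differences among them. It measured 2.24 and 8.02 FPKM in the control libraries and 6.74 and 9.99 FPKM in the KD libraries (0.85 ± 0.55, adjusted p = 0.656). Its low value lay in ZR751shLucif replicate 1 and its canonical transcript is 20635 bp long; the difference was 0.03 without that library and 1.67 when ZR751shLucif replicate 2 was left out instead. In the latter fit KMT2D was called (adjusted p = 0.0265), but so were 1269 of 11134 genes: ZR751shLucif replicate 1 is then the lone control library, assumed to vary as the ZR751shMLL3 libraries do. KMT2B was the one catalytic gene higher without overlap, at 6.80 and 8.56 against 11.6 and 10.8 FPKM (0.53 ± 0.27, adjusted p = 0.629), and ZR751shLucif replicate 1 was again the lowest library.

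The 7 other partners likewise gave 0 called genes, with 4 values below 0 and 3 above. PSIP1 (LEDGF), which holds menin complexes on chromatin, had the lowest difference. Its level was 60.3 and 30.5 FPKM in the control libraries and 31.3 and 25.2 FPKM in the KD libraries (-0.60 ± 0.39, adjusted p = 0.654); without ZR751shLucif replicate 1 the difference was -0.12. Without ZR751shLucif replicate 2 it was -1.09 with an adjusted p of 0.0457, in the same fit with a lone control library that called 1269 of 11134 genes. PAGR1, a partner of MLL3 and MLL4, shares its row with MVP, an abundant vault protein, and the 2 cannot be separated. That row held 40.5 and 31.6 FPKM in the control libraries and 57.4 and 57.4 FPKM in the KD libraries, without overlap (0.67 ± 0.28, unadjusted p = 0.0495, adjusted p = 0.613).

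Over the 4 libraries the median profile of the subunits was 0.24 in ZR751shLucif replicate 1 and -0.03, -0.07 and -0.08 in ZR751shLucif replicate 2 and ZR751shMLL3 replicates 1 and 2, each gene taken relative to its own mean of log2 values. The genes most like it were ZNF181, GARNL3 and SMAP1, with root mean square differences of 0.0227, 0.0232 and 0.0242. That profile is chiefly the high value in ZR751shLucif replicate 1.

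To set the gene starts beside the SP1 peaks, 300 bases upstream of the 5′-most annotated start were read from GRCh37. The genes shown are KDM6A, CXXC1, RBBP5, NCOA6 and DPY30. KDM6A and CXXC1 had an SP1 peak, at any FDR, within 1 kb of any annotated start in 4 libraries. RBBP5 and NCOA6 had one in 3 libraries, and DPY30, like MEN1, had none. ASH2L and PAXIP1 also had such a peak in 3 libraries and are not shown, PAXIP1 because its best peak ranked lower. Within 1 kb of the 5′-most start itself, KDM6A had a peak in replicate 1 of both cell lines. CXXC1 had one there in ZR751shLucif replicate 1 and ZR751shMLL3 replicate 2. RBBP5 had one in ZR751shLucif replicate 1 and both ZR751shMLL3 libraries, and NCOA6 in ZR751shMLL3 replicate 2 alone. SP1 is a zinc-finger factor that binds GC boxes, and capitals mark the core GGGCGG or its reverse complement CCGCCC. The windows lie at chrX:44732134-44732433 (KDM6A, plus strand), chr18:47814210-47814509 (CXXC1, minus), chr1:205091144-205091443 (RBBP5, minus), chr20:33413455-33413754 (NCOA6, minus) and chr2:32264875-32265174 (DPY30, minus), each given 5′ to 3′ in the direction of the gene.
KDM6A: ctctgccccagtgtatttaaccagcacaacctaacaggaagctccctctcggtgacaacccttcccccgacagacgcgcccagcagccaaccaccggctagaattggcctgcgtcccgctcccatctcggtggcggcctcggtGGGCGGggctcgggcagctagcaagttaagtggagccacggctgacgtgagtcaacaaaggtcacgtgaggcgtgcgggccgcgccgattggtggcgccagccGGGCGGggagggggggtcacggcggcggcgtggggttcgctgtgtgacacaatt
CXXC1: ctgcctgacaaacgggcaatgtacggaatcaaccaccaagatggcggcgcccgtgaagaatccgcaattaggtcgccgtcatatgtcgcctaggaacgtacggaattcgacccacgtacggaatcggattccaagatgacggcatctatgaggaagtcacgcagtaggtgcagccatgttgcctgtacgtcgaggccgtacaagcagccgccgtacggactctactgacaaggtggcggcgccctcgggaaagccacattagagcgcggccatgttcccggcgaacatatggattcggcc
RBBP5: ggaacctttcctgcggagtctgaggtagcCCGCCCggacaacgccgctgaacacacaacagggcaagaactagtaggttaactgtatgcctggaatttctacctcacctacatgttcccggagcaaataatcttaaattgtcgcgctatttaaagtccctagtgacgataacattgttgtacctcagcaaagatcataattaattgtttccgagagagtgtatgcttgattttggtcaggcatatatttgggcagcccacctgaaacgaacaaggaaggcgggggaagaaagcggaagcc
NCOA6: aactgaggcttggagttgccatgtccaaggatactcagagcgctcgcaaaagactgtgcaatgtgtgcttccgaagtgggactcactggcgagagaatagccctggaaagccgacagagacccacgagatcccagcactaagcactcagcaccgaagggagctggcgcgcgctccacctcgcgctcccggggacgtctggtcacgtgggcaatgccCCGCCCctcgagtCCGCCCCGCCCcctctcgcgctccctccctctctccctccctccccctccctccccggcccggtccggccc
DPY30: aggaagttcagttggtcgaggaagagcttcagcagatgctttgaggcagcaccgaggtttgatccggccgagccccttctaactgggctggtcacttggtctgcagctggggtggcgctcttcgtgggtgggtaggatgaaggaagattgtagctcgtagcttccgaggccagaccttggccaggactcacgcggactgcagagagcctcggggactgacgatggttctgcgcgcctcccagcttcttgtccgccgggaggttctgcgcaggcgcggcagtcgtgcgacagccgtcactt

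KDM6A held 2 cores, the farther one starting 157 bases upstream of the start, and NCOA6 held 3 between 84 and 61 bases upstream, of which the last 2 share a base. RBBP5 held 1, beginning 271 bases upstream in a window with 47.3% GC. CXXC1 and DPY30 held none, and neither did the window of ASH2L, which is not shown. Over all subunits 6 of 10 windows held a core, beside 61.8% of the windows of 10540 genes, and 1 of 10 held 3 or more, beside 24.1%. A match is a run of letters and not a measured binding site.

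SP1 peaks were looked up within 1 kb of any annotated start. Each list was called separately against the input of its cell line, and the false discovery rates were not on a common footing: at an FDR of 0.01 or less there were 204178 of 209985 and 12065 of 300000 peaks in ZR751shMLL3 replicates 1 and 2, and 0 of 300000 in both ZR751shLucif libraries, whose lowest FDR were 0.029 and 0.0622. At that FDR 6 and 5 of the 10 subunits had a peak in the ZR751shMLL3 libraries, beside 43.9% and 49.9% of all genes, and 0 and 0 in ZR751shLucif, beside 0% of all genes. The exact two-sided permutation p was 0.333, the smallest that 2 against 2 libraries allow. The peak's rank within its own list, by the signal of the peak caller, was therefore used to describe the subunits.

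By rank, 1 library differed from the other 3. Among the 50000 top-ranked peaks 7 of the 10 subunits had a peak in ZR751shMLL3 replicate 2, where 67.3% of all genes did. In ZR751shMLL3 replicate 1 there were 3 (18.2% of all genes), in ZR751shLucif replicate 1 also 3 (15.3%), and in ZR751shLucif replicate 2 there was 1 (16.9%). The subunits followed the share of all genes in each library, and the replicates of ZR751shMLL3 differed from each other more than replicate 1 did from the control libraries.

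In ZR751shMLL3 replicate 2 the best-ranked subunit peaks lay at the core subunits ASH2L and RBBP5. ASH2L ranked 658th of 300000, with its summit 49 bp downstream of the 5′-most start. RBBP5 ranked 842nd, 311 bp upstream of its start and just beyond the printed window. HCFC1 ranked 1992nd at 520 bp downstream, WDR5 5864th at 339 bp downstream and NCOA6 6242nd at 861 bp downstream. CXXC1 and PAXIP1 followed at ranks 18750 (256 bp downstream) and 23333 (378 bp upstream). Such ranks were common in this library: 5 of the 10 subunits had a peak among its 10000 top-ranked, beside 47.1% of all genes.

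RBBP5 was the subunit with an SP1 peak listed within 1 kb of its 5′-most start in the most libraries. Its best peak ranked 842nd and 28850th in the ZR751shMLL3 libraries and 3670th in ZR751shLucif replicate 1, with summits 311, 44 and 248 bp upstream of the start; ZR751shLucif replicate 2 listed none. KDM6A had its best peak in the other knockdown library, ranked 757th in ZR751shMLL3 replicate 1, with a summit 162 bp upstream of the start. In ZR751shLucif replicate 1 a peak 236 bp upstream ranked 250033rd, and in the remaining libraries the best peaks, ranked 270390th and 140442nd, lay at internal starts. DPY30 and MEN1 had no listed SP1 peak within 1 kb of any start in any of the 4 libraries; such a peak, whatever its rank, was listed near 44.4% and 88.2% of all genes in ZR751shMLL3 replicates 1 and 2 and near 49.0% and 54.7% in ZR751shLucif replicates 1 and 2.

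**Figure D4:**
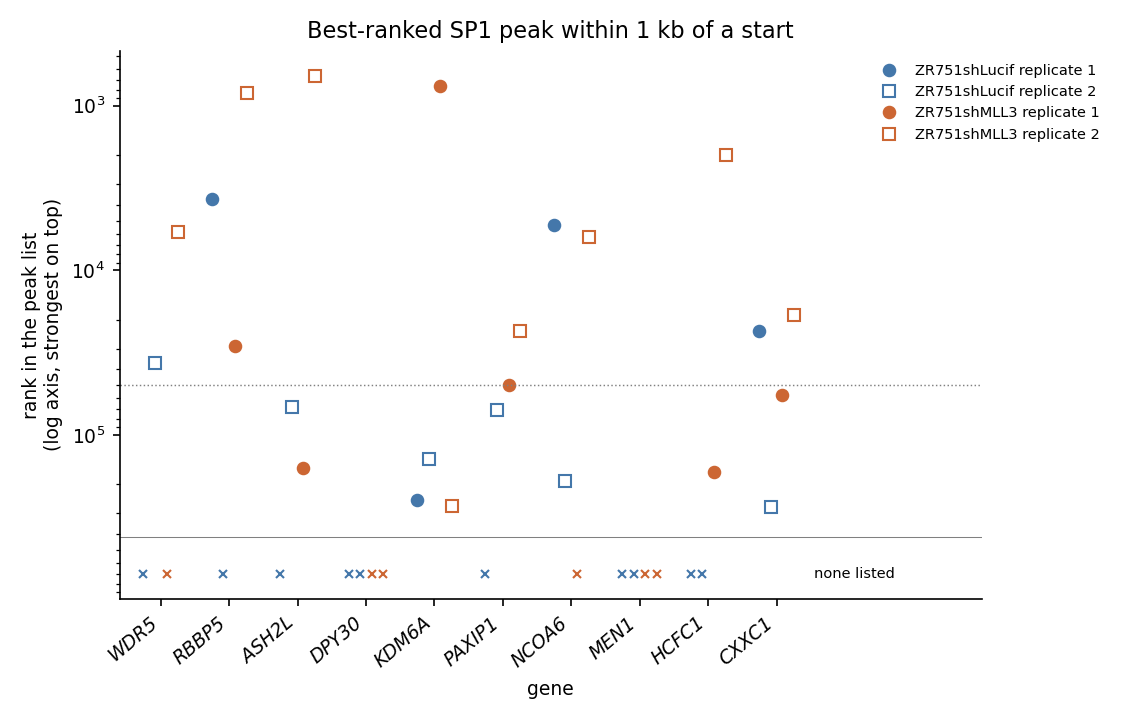
Rank of the best SP1 peak with a summit within 1 kb of any annotated start of each subunit, in each of the 4 SP1 libraries (log axis, rank 1 is the strongest peak of that list). The dotted line marks rank 50000, crosses mark libraries with none listed, and ZR751shMLL3 replicate 2 has 7 subunits above the line.

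H3K4me1, the mark that MLL3 and MLL4 place, was looked up within 5 kb of the starts, since it flanks active starts. At an FDR of 0.01 or less 3 and 5 of the 10 subunits had a peak in ZR751shMLL3 replicates 1 and 2 (27.0% and 56.3% of all genes), and 6 and 8 in ZR751shLucif replicates 1 and 2 (67.1% and 75.7%). Groups did not overlap, in the subunits as over all genes, and the exact two-sided permutation p was 0.333, the smallest possible. The number of peaks at that FDR moved with this count: it was 28599 and 109586 in ZR751shMLL3 and 141158 and 192201 in ZR751shLucif. With the same 50000 top-ranked peaks taken from each list the counts were 5 and 4 in ZR751shMLL3 (39.2% and 35.3% of all genes) and 4 and 3 in ZR751shLucif (36.1% and 36.5%). The order of the means turned, but the groups overlapped. Lists cut to the same size cannot show a loss in the number of peaks, so this count does not decide on such a loss. By reads at sites common to both cell lines, the study reported more H3K4me1 in the control at nearly all of them.

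RBBP5 and NCOA6 were the subunits with H3K4me1 among the 50000 top-ranked peaks of all 4 libraries, and both had a peak at an FDR of 0.01 or less beside the 5′-most start in every library. The share of all genes with such peaks in all 4 libraries was not counted, so these subunits are not called unusual. The best peak of RBBP5 ranked 24828th and 38286th in ZR751shMLL3 and 28193rd and 8318th in ZR751shLucif, with summits 1627, 1239, 1077 and 1135 bp downstream of the start. ASH2L had a peak at nearly the same place in 3 libraries, 1956 and 1957 bp downstream in ZR751shMLL3 (ranks 41259 and 40086) and 1811 bp downstream in ZR751shLucif replicate 1 (rank 83906). In ZR751shLucif replicate 2 the best peak of ASH2L, ranked 44142nd, lay at an internal start.

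Of the MLL3/MLL4 partners, KDM6A and NCOA6 had H3K4me1 at an FDR of 0.01 or less near some annotated start in all 4 libraries. For KDM6A the best peaks ranked 12984th and 31197th in ZR751shMLL3 and 24632nd and 167929th in ZR751shLucif. The summits of ZR751shMLL3 replicate 2 and ZR751shLucif replicate 1 lay 2646 and 2588 bp downstream of the start, and that of ZR751shMLL3 replicate 1 lay 1388 bp upstream. That of ZR751shLucif replicate 2 lay 201126 bp downstream, near an internal start. This library listed no peak within 5 kb of the 5′-most start of KDM6A. NCOA6 ranked 19768th and 45760th in ZR751shMLL3 and 33139th and 47381st in ZR751shLucif, and 3 of these 4 peaks were at internal starts. Beside the 5′-most start its best peaks lay 2043 and 1848 bp downstream in ZR751shMLL3 (ranks 23614 and 45760) and 1417 and 1367 bp downstream in ZR751shLucif (ranks 55039 and 76459). PAXIP1 reached the FDR in ZR751shMLL3 replicate 2 and both ZR751shLucif libraries, with ranks between 42632 and 88680 over the 4 lists.

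The other subunits had weak H3K4me1 or none. WDR5, DPY30 and HCFC1 reached the FDR in ZR751shLucif replicate 2 alone and CXXC1 in ZR751shLucif replicate 1 alone. MEN1 reached it in no library; its best listed peak ranked 189537th in ZR751shLucif replicate 1. DPY30 and MEN1 were thus the subunits with a listed peak in just 1 H3K4me1 library each, and they were also those with no SP1 peak. How many of all genes share this pattern was not counted.

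**Figure D5:**
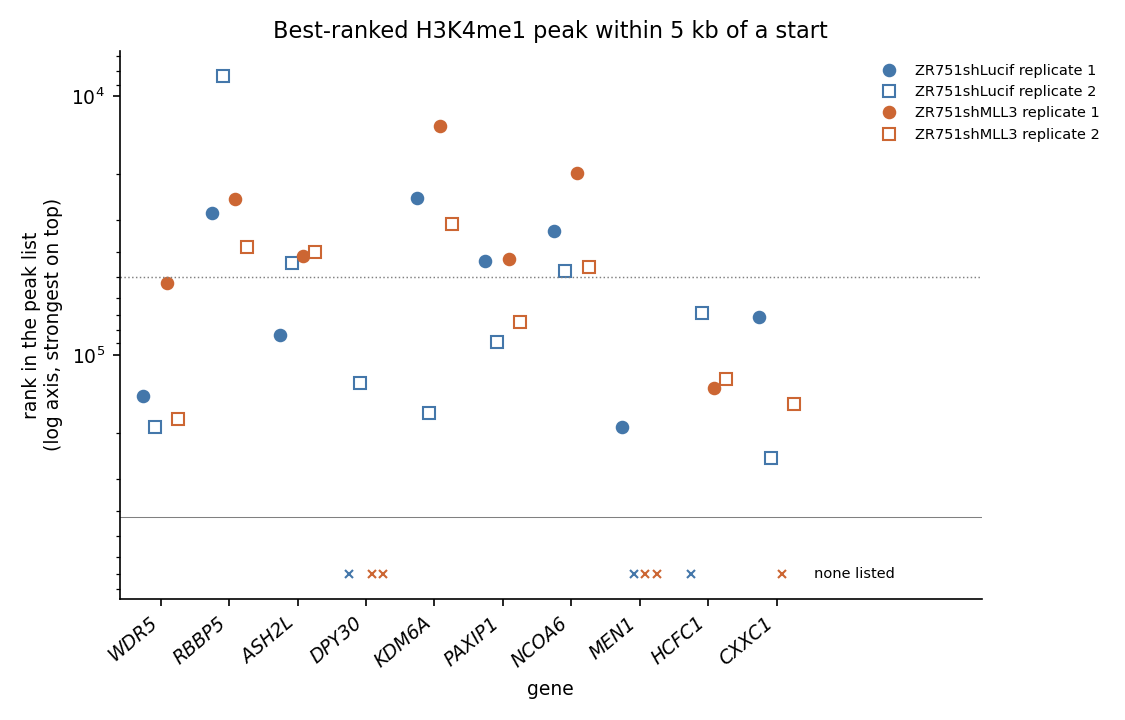
Rank of the best H3K4me1 peak with a summit within 5 kb of any annotated start of each subunit, in each of the 4 H3K4me1 libraries (log axis, rank 1 is the strongest peak of that list). The dotted line marks rank 50000 and crosses mark libraries with none listed; RBBP5 (ranks 8318 to 38286) and NCOA6 (19768 to 47381) lie above the line in all 4 libraries.

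ERα, the estrogen receptor of these luminal cells, had few peaks within 1 kb of the subunit starts. At an FDR of 0.01 or less there were 0 and 2 subunits in ZR751shMLL3 replicates 1 and 2 (0.342% and 6.90% of all genes) and 3 and 0 in ZR751shLucif replicates 1 and 2 (23.2% and 1.87%; exact two-sided permutation p = 1). RBBP5, ASH2L and MEN1 had them in ZR751shLucif replicate 1, and KDM6A and PAXIP1 in ZR751shMLL3 replicate 2, so no subunit was shared between libraries. The best peaks of ASH2L, MEN1, KDM6A and PAXIP1 lay near internal starts, 9326, 1671, 218474 and 41415 bp downstream of the 5′-most start. Within 1 kb of the 5′-most start RBBP5 alone had a peak at that FDR, beside 7.12% of all genes in ZR751shLucif replicate 1. At RBBP5 the ERα summit of ZR751shLucif replicate 1 lay 248 bp upstream of the start, at the same base where the SP1 summit of the ZR751shLucif replicate 1 library lay, and ranked 6950th of 156481. That SP1 peak had an FDR of 0.038, so it did not reach the limit of 0.01. Both lists were called against the input of ZR751shLucif. In ZR751shLucif replicate 2 the RBBP5 ERα peak lay 705 bp upstream with an FDR of 0.085. Shared binding was not tested. WDR5 and HCFC1 had no listed ERα peak in any library.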

How the data were processed

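RNA-seq and ChIP-seq of ZR751shMLL3 and ZR751shLucif were analysed from the deposited files (2 libraries per cell line and assay; 2 inputs had no list to analyse here). Per the labels and the study's methods, the authors aligned RNA reads to hg19 with TopHat2 2.0.13 and made FPKM with Cufflinks and Cuffnorm 2.2.1; the table holds no read counts, so no depth per library or counting interval is given here. ChIP reads were aligned with BWA 0.7.5a-r405 (duplicates handled with Picard 1.126), and SPP peaks were called for each library with the matching input of that cell line as control. The deposited lists give a signal on a scale of each list's own and the −log10 of the FDR, and are relaxed lists without the study's later reproducibility threshold. The 2 inputs come from different library series, so input series and cell line cannot be told apart.

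RefSeq accessions were matched to symbols for 22894 of 23500 rows (97.42%). Genes with a mean log2(FPKM + 0.5) above 1 (11134, all 10 subunits among them) entered limma 3.58.1 (R 4.3.3, eBayes) with cell line as the one term, with Benjamini-Hochberg adjustment over all genes and a threshold of 0.05. The main limma fit was tested on simulated data and the search for peaks in windows on made-up peaks. The alternative fits and the permutation test were not tested in this way. Peak summits were placed against GENCODE v44lift37 starts on GRCh37, the build of the lists; "all genes" for peaks are the 10540 tested genes with a position, and ranks order a list by signal. Counts of subunits with a peak were compared by exact two-sided permutation. SP1 lists shared no FDR scale, so ranks within lists are given beside the planned FDR counts. Named genes are all subunits, KMT2C, the largest difference in each direction of 2 related lists (KMT2B and the ASH2L statistics without moderation were named after their values were seen), and the 3 genes with the most similar profile. The subunits and lists were chosen with earlier results of these data known. Alternatives covered pseudocount, filter, scaling, GC content and length trends, a surrogate variable, the replicate block, FDR or rank limits, windows, and each library left out.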

Additional observations from a re-analysis of the deposited data

How the results depend on the processing

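Under the 15 alternatives for RNA, 0 of the 10 subunits were called, and of 148 subunit values 11 changed sign. With the GC content trend removed RBBP5 came to 0.0027, KDM6A to 0.053 and DPY30 to 0.21. With GC content and length trends removed DPY30 came to 0.35 and HCFC1 to -0.065, and with quantile normalization DPY30 came to 0.014. With 1 library left out, values ran from -0.40 to 0.040 for WDR5, -0.36 to 0.19 for DPY30, -0.45 to 0.0019 for PAXIP1, -0.60 to 0.23 for MEN1 and -0.46 to 0.14 for CXXC1, the highest each time without ZR751shLucif replicate 1, where the sign turned. ASH2L and NCOA6 kept their sign throughout. The stricter filter left KDM6A and PAXIP1 out. The cause of these turns was not tested. Over all genes the number called was 1, against 33 with the replicate block, 473 with 1 surrogate variable, 1269 without ZR751shLucif replicate 2, 0 with no filter on low values, and 2, 2 and 4 without the other libraries in turn. Replicate numbers did not pair the libraries (correlation of deviations 0.0374), and the subunits called with the replicate block were 0.

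The difference in the number of subunits with an H3K4me1 peak (ZR751shMLL3 minus ZR751shLucif, -3 as reported) was 1 at a limit of rank 50000, 0.5 at rank 20000, and -4 to -2 with 1 library left out. That of ERα (-0.5) ran from -2 to 1 with 1 library left out, at 1 without ZR751shLucif replicate 1 and 0.5 without ZR751shMLL3 replicate 1. That of SP1 (5.5) ran from 5 to 6 with 1 library left out and was 2 at a limit of rank 10000, an alternative added after seeing the data. Over the other limits, windows and starts the differences ran from 2 to 7 for SP1, -3 to -1 for H3K4me1 and -3 to -0.5 for ERα. No alternative could pass a threshold, since the exact permutation test of 2 against 2 libraries gives at least p = 0.333.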
